A study of Homo sapiens with 6 samples.

Results

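The genes described here encode chromatin modifiers and remodelers. They were chosen by gene symbol, from families that write histone methyl or acetyl marks (KMT, SETD, NSD, EZH, KAT), remove them (KDM, HDAC, SIRT), methylate DNA or oxidise its methyl groups (DNMT, TET), slide or evict nucleosomes (SMARC, CHD, ARID) or bind marked histones (BRD, CBX, PHF, ING). Only autosomal genes read by a probe set with 1 gene symbol were taken, and 126 of the 11584 genes in the table met the rule. By symbol alone the rule also took 2 non-coding transcripts, KMT2E-AS1 and KDM7A-DT. A further 13 autosomal protein-coding genes of these families in RefSeq were not analysed here. RNA levels were read on 6 Affymetrix U133 Plus 2.0 arrays, which carry probe sets for human transcripts, with 2 arrays in each of 3 groups. All cells were HEK293 T-REx Flp-In cells, an embryonic kidney line with a doxycycline-inducible FLAG/HA-tagged LIN28B gene. The groups were mock-transfected cells without induction, mock-transfected cells with the transgene induced, and cells without induction that were transfected with siRNA against LIN28B. The labels' protocol induces the transgene with doxycycline at 250 ng/ml, given 15 to 20 h ahead of crosslinking, and gives no separate time for the array samples. No group used here received a non-targeting siRNA, so effects of siRNA transfection and of LIN28B loss cannot be told apart. Nothing in the labels says that the arrays of a group stem from separate cultures, and the spread behind each p-value may therefore be technical. Values are on a log2 scale, a difference of 1 being a 2-fold change. The arrays of each group are numbered as in the labels, and those of mock cells without induction are called uninduced mock arrays 1 and 2 where 1 of them was left out.

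DNA is wrapped around histones, and chemical marks on the histone tails and on the DNA set how open a gene is to transcription. Writers place the marks, erasers remove them, readers bind them, and remodelers use ATP to move nucleosomes. Most of these proteins work in multisubunit complexes such as Polycomb repressive complex 2 (PRC2), which methylates lysine 27 of histone H3, COMPASS, which methylates lysine 4, and BAF, a nucleosome remodeler. LIN28B binds RNA and blocks maturation of let-7 microRNAs.

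LIN28B, the target of the siRNA, had log2 values of 10.02 and 9.85 on the mock arrays not induced, 10.15 and 10.11 on the induced arrays, and 7.51 and 7.53 on the knockdown arrays. It fell by 2.42 (SE 0.0784, limma adjusted p = 5.02e-07), to 18.7% of mock cells not induced. The induced arrays were the highest, with a log2 difference from those not induced of 0.19 (SE 0.0784, adjusted p = 0.999) that did not pass. Arrays of 1 group correlated across all probe sets at r = 0.9899 or higher and knockdown with mock arrays at 0.9745 or lower, over probe sets that are not independent. Of 16 markers listed for HEK293 cells 12 were in the table, with means on the mock arrays not induced of 9.98 for the keratin gene KRT18, 12.61 for VIM and 10.53 for the neurofilament gene NEFL. In the knockdown 4 of the 12 rose (KRT8, INA, LHX1 and SALL1) and 2 fell (VIM and NEFL), or 50.0% called, against 28.0% of all genes. NEFL went to 9.94, and the neuronal filament gene INA from 8.51 to 9.24. Of the other marker lists, 2 of 11 blood, 1 of 10 fibroblast, 0 of 5 endothelial and 2 of 6 pluripotency genes were in the table. The highest of these genes on those arrays was SOX2 at a mean of 7.44, and KLF4 alone was called, with a log2 fold change of -0.68. The part that marker genes have in the results was not tested.

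Of the 126 chromatin genes, 14 rose in the knockdown against mock cells not induced, 8 fell and 104 did not pass (limma, Benjamini-Hochberg adjusted p under 0.05 over all genes). That is 17.5% called, against 28.0% of all 11584 genes. In each direction it is 11.1% higher against 13.5% of all genes, and 6.35% lower against 14.5%. The largest rise was in KDM5A, an eraser of methyl marks on lysine 4 of histone H3, and the largest fall in KDM1B, another eraser of that residue. Other large changes were rises of the mitochondrial sirtuin gene SIRT4, the acetyltransferase gene KAT2B and ARID5B, and a fall of the bromodomain gene BRD3.

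The median log2 fold change was 0.036 over the members and 0.006 over all genes. The median absolute change was 0.155 over the members and 0.207 over all genes, with median standard errors (SE) of 0.116 and 0.123. A change of at least 2-fold was seen for 1 member, KDM5A, or 0.794%, against 2.21% of all genes. Members called with at least 1.5-fold change numbered 6, or 4.76%, against 10.2%. Of the 104 that did not pass, 75 lay within 0.2 of no change on the log2 scale. For 91 of them the 95% interval lay within a 1.5-fold change either way (0.585 on the log2 scale). The mean log2 values of members over all arrays ran from 4.99 to 11.38, with a median of 7.25, against 7.16 for all genes and 8.35 for the called members. With 2 arrays a group, precision is limited by their number. The medians of the role classes ran from -0.16 for the BRD genes to 0.29 for the ARID genes. Set against all 4 mock arrays, a fit added after seeing the data, 31 members or 24.6% were called, and 37.0% of all genes. Without either knockdown array fewer members were called. Such a fit leaves 1 array in the group. The share of all genes called in it is not given here, so the fall cannot be read as particular to the members.

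**Figure D1:**
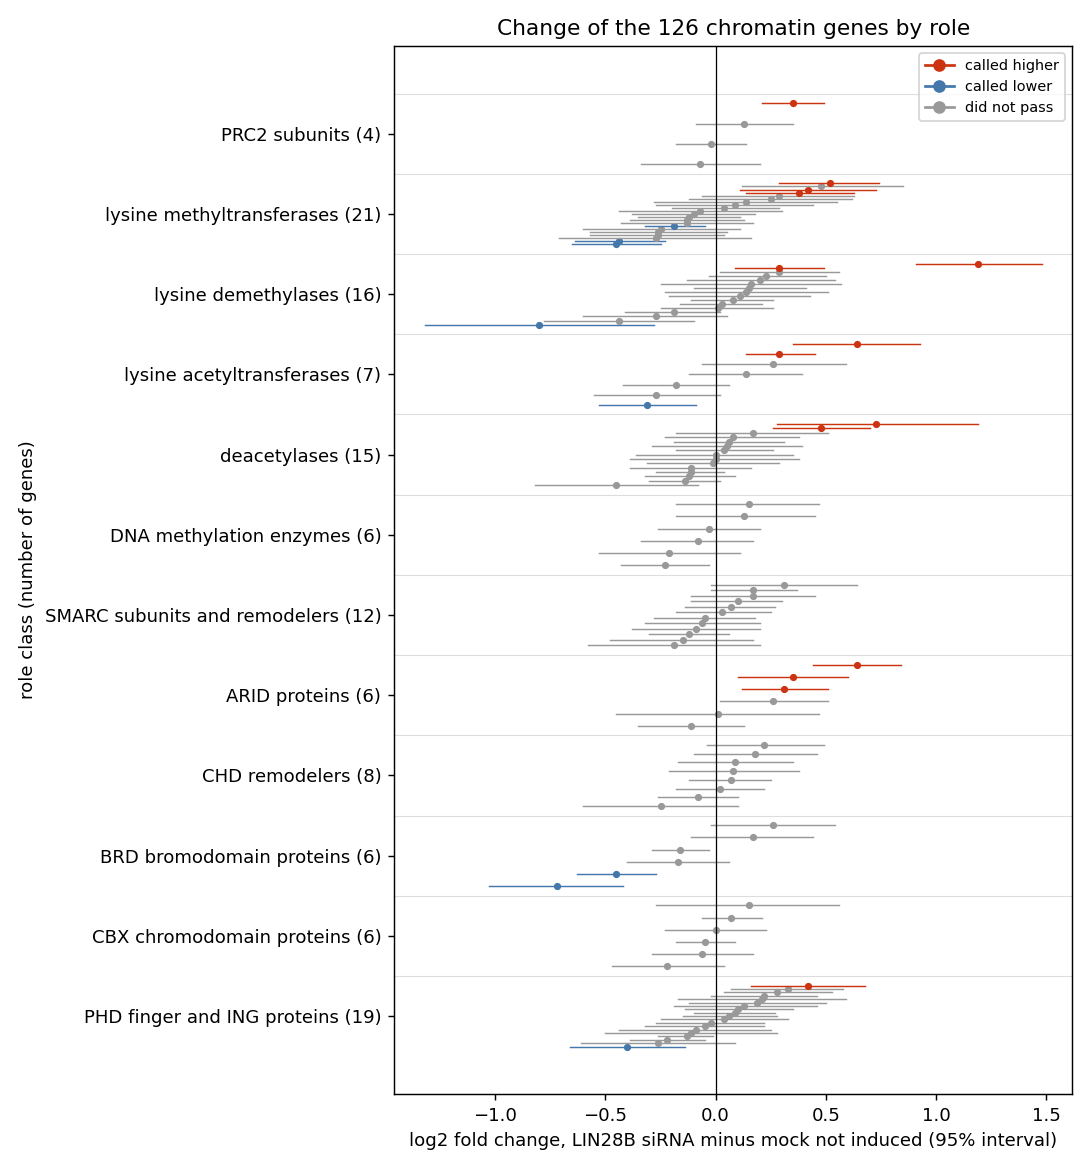
Log2 fold change of each of the 126 genes in LIN28B siRNA cells against mock cells not induced (horizontal axis), grouped by role class (vertical axis), where points are fitted values and lines 95% intervals. The 14 genes called higher are red, the 8 called lower blue and the 104 that did not pass grey. KDM5A, at 1.19, lies apart from the other demethylase genes. The non-coding KMT2E-AS1 and KDM7A-DT are drawn with the methyltransferase and demethylase genes.

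Both knockdown arrays lay above all 4 mock arrays for 30 members and below them for 24, or 23.8% and 19.0%, against 27.1% and 26.0% of all genes. All 22 called members were among these, which their choice by the same arrays favours. Only 2 of the 22, KDM1B in the knockdown and SIRT4 in the mock cells, had a group mean under 5, near the bottom of the scale. KDM1B lay above 5 on the mock arrays only. SIRT4 lay above 5 on both knockdown arrays and, of the mock arrays, only on uninduced mock array 1. Nearly all deposited probe sets lay above 5 on at least 2 arrays. Both genes may thus be in the table only through the group where they are high, which favours a difference. Probe sets of the types _s_at and _x_at, which can pick up related transcripts, read 48 members and 7 of the 22 called ones: KDM5A, KDM5B, SIRT1, SIRT4, ARID4B, NSD3 and PHF3.

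**Figure D2:**
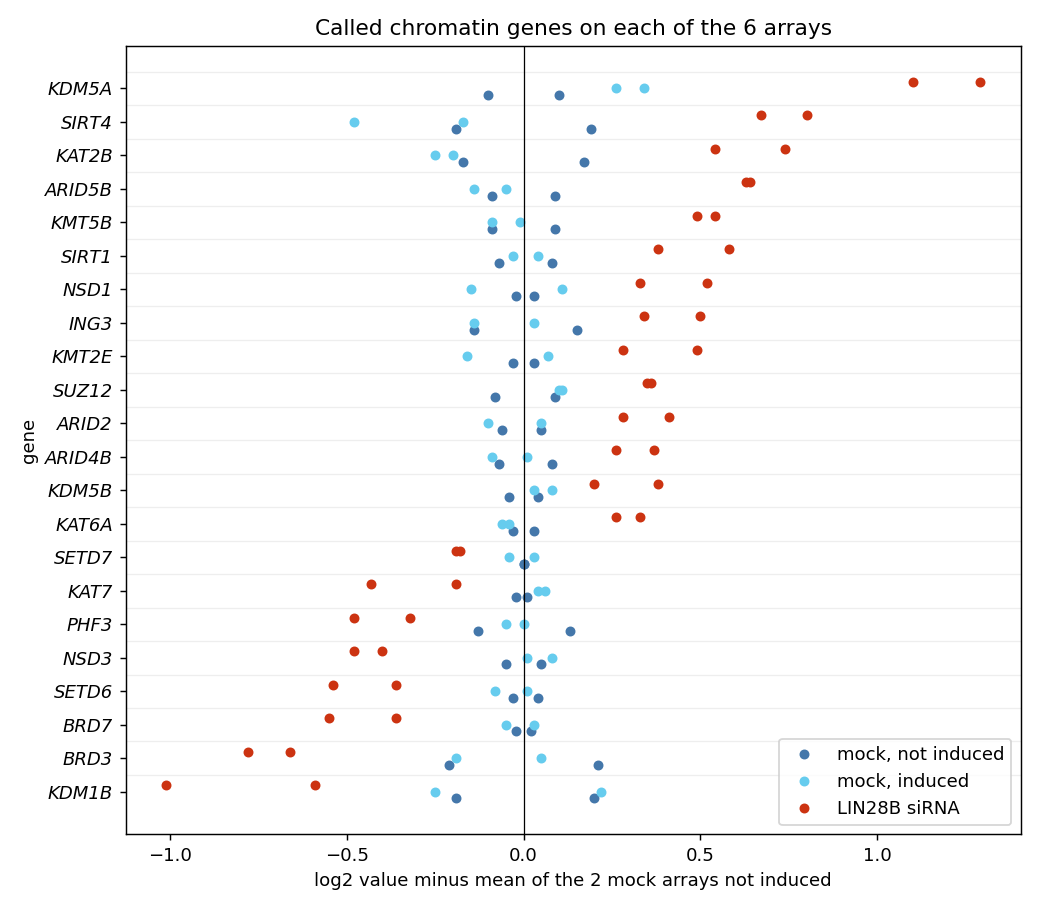
Log2 values of the 22 called genes on each of the 6 arrays, as the difference from the mean of the 2 mock arrays not induced (horizontal axis), with genes on the vertical axis in order of change. Each point is 1 array. For every gene both knockdown arrays (red) lie to 1 side of all 4 mock arrays (blue and light blue). The genes were chosen by their difference on these same arrays, which favours such a separation.

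The stretch of DNA just upstream of the transcription start is shown for 4 genes with large changes and 1 start in the RefSeq promoter table (GRCh38.p14), the risers KDM5A and KAT2B and the fallers KDM1B and BRD3. SIRT4, which rose more than KAT2B, and ARID5B, which rose as much, have more than 1 start there and are not shown. Each run is the 250 bases before the start, read 5′ to 3′ on the gene's strand, and capitals mark the GC box GGGCGG on either strand, the sequence bound by SP1 family factors. KDM5A lies at chr12:389321-389570 (minus strand), KAT2B at chr3:20040196-20040445 (plus), KDM1B at chr6:18155172-18155421 (plus) and BRD3 at chr9:134068027-134068276 (minus).
KDM5A: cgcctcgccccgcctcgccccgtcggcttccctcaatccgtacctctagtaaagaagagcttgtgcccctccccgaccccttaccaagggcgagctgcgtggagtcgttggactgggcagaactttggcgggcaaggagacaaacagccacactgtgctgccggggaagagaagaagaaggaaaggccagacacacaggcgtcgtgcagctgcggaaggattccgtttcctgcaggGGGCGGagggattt
KAT2B: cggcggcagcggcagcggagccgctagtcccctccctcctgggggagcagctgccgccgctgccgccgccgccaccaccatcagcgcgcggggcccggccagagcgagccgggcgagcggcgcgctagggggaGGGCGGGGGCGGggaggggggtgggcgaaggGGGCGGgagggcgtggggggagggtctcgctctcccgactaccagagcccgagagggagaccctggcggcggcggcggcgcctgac
KDM1B: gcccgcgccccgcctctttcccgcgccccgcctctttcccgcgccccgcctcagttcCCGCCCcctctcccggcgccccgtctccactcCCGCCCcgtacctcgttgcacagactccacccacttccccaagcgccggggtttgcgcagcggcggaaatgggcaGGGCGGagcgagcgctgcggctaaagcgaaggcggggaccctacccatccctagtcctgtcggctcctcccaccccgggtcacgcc
BRD3: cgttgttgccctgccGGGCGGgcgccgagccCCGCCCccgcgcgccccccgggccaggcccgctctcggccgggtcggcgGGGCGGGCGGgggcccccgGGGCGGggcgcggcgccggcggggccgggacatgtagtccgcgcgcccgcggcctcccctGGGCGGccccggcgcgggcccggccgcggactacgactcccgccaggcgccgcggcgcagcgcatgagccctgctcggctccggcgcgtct

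These 4 stretches held 1, 3, 3 and 6 GC boxes in the order shown, of which 1 pair in BRD3 overlaps, and their GC content was 62.0%, 80.8%, 73.6% and 86.8%. Such a box was found upstream of 77.3% of the 110 members with a promoter in that table and of 75.6% of 9476 genes tested that have one. It was present for 9 of 11 members called higher and 5 of 7 called lower. The ETS core CCGGAAG, on either strand, was present for 0 of the 11 and 2 of the 7, against 20.0% of members and 19.1% of all. The CCAAT box was found upstream of 38.2% of members and 42.1% of all genes, the TATA box TATAAA of 4.55% and 7.67%, the NRF1 core GCGCATGC of 7.27% and 5.88%, and the cAMP response element TGACGTCA of 0.909% and 3.54%, each searched on both strands. None of the 4 stretches printed holds any of these other motifs. Members had a median GC content of 68.4% in this window and all genes 64.8%. Such matches describe letters in a window and do not show binding.

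Among the lysine demethylase genes, 2 rose, 1 fell and 13 did not pass, the non-coding KDM7A-DT among these 13. Over all genes 13.5% rose and 14.5% fell. KDM5A read 6.35 and 6.15 on the mock arrays not induced, 6.59 and 6.51 on the induced arrays and 7.35 and 7.54 on the knockdown arrays. The knockdown arrays were the highest and did not overlap with either mock group. The change was 1.19 on the log2 scale (SE 0.128, limma adjusted p = 0.000217), or 2.29-fold. Its paralog KDM5B, which acts on the same mark, read 8.53 and 8.45, then 8.57 and 8.52, then 8.87 and 8.69 in the same order of groups, a change of 0.29 (adjusted p = 0.0363). KDM1B, a flavin-dependent demethylase, read 5.59 and 5.20 without induction, 5.61 and 5.14 with it, and 4.38 and 4.80 in the knockdown. It fell by 0.80 (SE 0.232, adjusted p = 0.0285). The better known enzyme of that kind, KDM1A of the CoREST complex, read 7.29 and 7.01 in mock cells and 7.41 and 7.36 in the knockdown, with a log2 difference of 0.23 (95% interval -0.03 to 0.50) that did not pass. KDM3B and KDM4C, erasers of methyl marks on lysine 9 of histone H3, changed least for their error, with intervals of -0.16 to 0.21 and -0.25 to 0.26.

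The calls of KDM1B and KDM5B did not hold in every fit with 1 array left out, and such fits also have fewer arrays to estimate the spread. The induced arrays enter this comparison only through that estimate, and without either of them the change of KDM5B stayed 0.29. KDM1B lost its call without uninduced mock array 1 (-0.60, adjusted p = 0.141) and without knockdown replicate 1 (-0.59, adjusted p = 0.185). KDM5B lost it without uninduced mock array 2 (0.25, adjusted p = 0.0974), without knockdown replicate 1 (0.20, adjusted p = 0.26) and without either induced array (adjusted p = 0.0633 and 0.0631). KDM1A passed without uninduced mock array 1 (0.38, adjusted p = 0.041).

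The lysine methyltransferase genes were split, with 3 higher, 3 lower and 15 not passing, the non-coding KMT2E-AS1 among these 15. Over all genes 13.5% were higher and 14.5% lower. KMT5B, which methylates lysine 20 of histone H4, read 7.74 and 7.56 on the mock arrays not induced and 7.64 and 7.56 on the induced ones, against 8.14 and 8.19 in the knockdown. It rose by 0.52 (SE 0.1, adjusted p = 0.0045). KMT2E, a relative of the MLL methyltransferases, read 8.05 and 7.99, 8.09 and 7.86, and 8.30 and 8.51 in these groups, and rose by 0.38 (adjusted p = 0.0279). NSD1, which methylates lysine 36 of histone H3, read 6.24 and 6.29, 6.37 and 6.11, and 6.78 and 6.59, and rose by 0.42 (adjusted p = 0.049). In NSD3, a gene of that family, the change was the other way: its values were 8.04 and 8.14, 8.17 and 8.10, and 7.61 and 7.69. It fell by 0.44 (SE 0.092, adjusted p = 0.00655). SETD6, an enzyme known to methylate the NF-kB subunit RELA, read 8.66 and 8.73, 8.61 and 8.70, and 8.33 and 8.15, and fell by 0.45 (SE 0.0907, adjusted p = 0.00522). SETD7, which adds 1 methyl group to lysine 4 of histone H3 and to other proteins, moved least of the called members, from 9.90 on both mock arrays not induced to 9.71 and 9.72, a fall of 0.19 (adjusted p = 0.047). KMT2B, of the MLL family, and SETD4 changed least for their error, with intervals of -0.44 to 0.30 and -0.20 to 0.29.

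Of these 6 calls only that of KMT5B held without each array of the compared groups in turn. NSD3 lost its call without knockdown replicate 1 (-0.40, adjusted p = 0.0613) and SETD6 without knockdown replicate 2 (-0.36, adjusted p = 0.0544). KMT2E lost it without uninduced mock array 2 (0.35, adjusted p = 0.0761) and without knockdown replicate 2 (0.28, adjusted p = 0.201). NSD1 and SETD7 lie at the threshold and lost their call without any 1 of the 6 arrays, with adjusted p of 0.0581 to 0.259 and 0.0706 to 0.18.

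PRC2 had 1 of its 4 measured core genes called, against 28.0% of all genes. SUZ12, the subunit that holds the complex together, read 10.60 and 10.43 in mock cells not induced, 10.62 and 10.61 with induction, and 10.87 and 10.86 in the knockdown. Its rise was 0.35 (SE 0.0631, adjusted p = 0.00285) and held without each array in turn. EZH2, the catalytic subunit, read 9.34 and 9.31, 9.34 and 9.28, and 9.36 and 9.25, so that the groups overlapped, and its interval was -0.18 to 0.14. EED, which binds the finished mark, had an interval of -0.09 to 0.35 and EZH1, the alternative catalytic subunit, one of -0.34 to 0.20.

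Of 7 genes in the table for proteins that join PRC2, 4 rose and 1 fell, or 71.4% called, against 28.0% of all genes. The median change was 0.37. Members were left out of this list, among them PHF1, a PRC2 accessory gene, and its listed paralog PHF19. Neither passed, with log2 differences of 0.33 and 0.13 (limma adjusted p = 0.0597 and 0.532). AEBP2 (-0.44, limma adjusted p = 0.059) and EPOP (-0.05, adjusted p = 0.849) did not pass. Against the induced arrays AEBP2 was called lower (-0.54, adjusted p = 0.0255). LCOR, whose locus also encodes a PRC2 accessory protein, read 8.26 and 7.95 without induction, 8.15 and 8.18 with it and 9.12 and 8.80 in the knockdown, and rose by 0.86 (SE 0.128, adjusted p = 0.00123). Which transcript of the LCOR locus the probe set reads was not examined. MTF2, which guides PRC2 to DNA, rose by 0.55 (adjusted p = 0.00344). RBBP4 and RBBP7, closely related histone-binding proteins shared by PRC2, NuRD and SIN3 complexes, went opposite ways: RBBP4 fell by 0.55 (SE 0.108) and RBBP7 rose by 0.37 (SE 0.0573). JARID2 rose by 0.48 (SE 0.0836). RBBP7 and JARID2 were picked after their values were seen. All 5 calls held without each array in turn.

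Of 7 lysine acetyltransferase genes, 2 rose and 1 fell, against 13.5% higher and 14.5% lower of all genes. KAT2B, also called PCAF, read 7.31 and 7.65 without induction and 7.23 and 7.28 with it, against 8.22 and 8.02 in the knockdown. The rise was 0.64 (SE 0.13, adjusted p = 0.00561), or 1.56-fold. KAT6A, the MOZ acetyltransferase, read 9.24 and 9.30, 9.23 and 9.21, and 9.60 and 9.53, and rose by 0.29 (SE 0.0688, adjusted p = 0.0113). KAT7, the HBO1 enzyme that works at replication origins, read 8.41 and 8.38, 8.44 and 8.46, and 7.97 and 8.21, and fell by 0.31 (adjusted p = 0.0388). KAT5, the TIP60 enzyme, and KAT8, the MOF enzyme, had intervals of -0.12 to 0.39 and -0.42 to 0.06. Without knockdown replicate 1, KAT2B had 0.53 (adjusted p = 0.0657) and KAT6A 0.25 (adjusted p = 0.102), and neither passed. KAT7 had -0.19 (adjusted p = 0.272) without that array and did not pass without any of the other arrays except knockdown replicate 2 (adjusted p of 0.0614 to 0.0843).

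Of 15 deacetylase genes, 2 sirtuins rose and none of the others passed, against 13.5% higher and 14.5% lower of all genes. SIRT1, the NAD-dependent enzyme of the nucleus, read 8.16 and 8.31 without induction, 8.27 and 8.20 with it, and 8.81 and 8.61 in the knockdown, a rise of 0.48 (SE 0.0982, adjusted p = 0.00596). SIRT4, which works in mitochondria and is not a chromatin enzyme, read 5.04 and 4.66, 4.37 and 4.68, and 5.52 and 5.65, a rise of 0.73 (SE 0.201, adjusted p = 0.0225). SIRT1 had 0.38 (adjusted p = 0.0721) without knockdown replicate 1. SIRT4 had 0.55 (adjusted p = 0.118) without uninduced mock array 2, and 0.80 (adjusted p = 0.0807) and 0.67 (adjusted p = 0.121) without knockdown replicates 1 and 2. HDAC1 and HDAC2, the catalytic pair of NuRD, SIN3 and CoREST, had intervals of -0.30 to 0.02 and -0.18 to 0.26. HDAC1 passed without uninduced mock array 2 (-0.24, adjusted p = 0.0257). HDAC7 and SIRT5 changed least for their error, with intervals of -0.36 to 0.35 and -0.39 to 0.38.

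Of the 6 genes for DNA methylation and its removal 0 passed by limma, against 28.0% of all genes. An unadjusted p under 0.05 was found for 1 of them, DNMT1, against 39.4% of all genes. DNMT1, which copies methylation after replication, read 9.67 and 9.94 in mock cells not induced, 9.70 and 9.79 with induction and 9.60 and 9.55 in the knockdown. The log2 difference was -0.23 (95% interval -0.43 to -0.03, adjusted p = 0.0875), and -0.36 (adjusted p = 0.00641) without uninduced mock array 1. DNMT3B, which places new methylation, and TET1, which oxidises it, had intervals of -0.34 to 0.17 and -0.26 to 0.20.

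Of the 6 ARID genes, which share a DNA-binding domain and belong to several complexes, 3 rose, against 13.5% of all genes. ARID5B, a DNA-binding partner of the demethylase PHF2, read 8.50 and 8.32 without induction, 8.36 and 8.27 with it, and 9.04 and 9.05 in the knockdown. It rose by 0.64 (SE 0.089, adjusted p = 0.000841), or 1.56-fold. ARID2, a subunit of the PBAF form of BAF, read 7.32 and 7.21, 7.32 and 7.17, and 7.55 and 7.68, and rose by 0.35 (adjusted p = 0.0389). ARID4B, a subunit of the SIN3 deacetylase complex, read 8.87 and 8.72, 8.70 and 8.80, and 9.05 and 9.16, and rose by 0.31 (adjusted p = 0.0222). The BAF subunit gene ARID1A and its distant relative ARID5A had intervals of -0.35 to 0.13 and -0.45 to 0.47. ARID5B kept its call without each array. ARID2 had 0.30 (adjusted p = 0.113) without uninduced mock array 2, 0.42 (adjusted p = 0.0887) and 0.29 (adjusted p = 0.208) without knockdown replicates 1 and 2, and adjusted p = 0.0606 and 0.0595 without the induced arrays. ARID4B had 0.24 (adjusted p = 0.078), 0.37 (adjusted p = 0.0612) and 0.26 (adjusted p = 0.155) without the first 3 of these.

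Of the 12 SMARC genes and the 8 CHD genes 0 passed by limma, against 28.0% of all genes. An unadjusted p under 0.05 was found for 0 of them, against 39.4% of all genes. The SMARC log2 differences ran from -0.19 to 0.31 and the CHD ones from -0.25 to 0.22. SMARCA4, the BRG1 ATPase of BAF, read 8.66 and 9.18 in mock cells not induced, 8.84 and 9.04 with induction and 8.76 and 8.77 in the knockdown. Its mock arrays lay farther apart than the groups, and its interval was -0.48 to 0.17. It passed without uninduced mock array 1, at -0.42 (adjusted p = 0.0131). SMARCAD1 and the BAF subunit gene SMARCD3 changed least for their error, with intervals of -0.18 to 0.25 and -0.28 to 0.18. Among CHD genes these were CHD1, which binds methylated lysine 4 of histone H3, at -0.18 to 0.22, and CHD6 at -0.21 to 0.38.

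Among reader genes, 2 of 6 BRD genes fell, against 14.5% of all genes. In the CBX class 0 of 6 genes passed by limma or had an unadjusted p under 0.05, against 28.0% and 39.4% of all genes. BRD3, a BET protein that binds acetylated histones, read 8.83 and 9.25 without induction, 8.85 and 9.09 with it and 8.26 and 8.38 in the knockdown. It fell by 0.72 (SE 0.136, adjusted p = 0.00375). BRD7, a PBAF subunit, read 9.53 and 9.57, 9.50 and 9.58, and 9.0 and 9.19, and fell by 0.45 (SE 0.0804, adjusted p = 0.00282). Both held without each array in turn. BRD1, of an acetyltransferase complex, and BRD9, of the non-canonical BAF complex, had intervals of -0.11 to 0.44 and -0.40 to 0.06. BRD1 passed without uninduced mock array 2 (0.35, adjusted p = 0.0407). CBX5, the HP1 alpha protein of heterochromatin, read 8.41 and 8.19, 8.27 and 8.20, and 8.31 and 8.17, with an interval of -0.29 to 0.17. CBX6, of Polycomb repressive complex 1, had an interval of -0.23 to 0.23.

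Of 19 PHD finger and ING genes, 1 rose and 1 fell, against 13.5% and 14.5% of all genes. ING3, which binds methylated lysine 4 of histone H3 in the TIP60 acetyltransferase complex, read 8.46 and 8.17 without induction, 8.17 and 8.34 with it and 8.81 and 8.65 in the knockdown, a rise of 0.42 (SE 0.115, adjusted p = 0.0232). PHF3, a regulator of RNA polymerase II, read 7.86 and 7.60, 7.68 and 7.73, and 7.25 and 7.41, a fall of 0.40 (SE 0.117, adjusted p = 0.0294). ING3 had 0.27 (adjusted p = 0.0995) without uninduced mock array 2, and 0.34 (adjusted p = 0.17) and 0.50 (adjusted p = 0.0544) without knockdown replicates 1 and 2. PHF3 had -0.27 (adjusted p = 0.118) without uninduced mock array 1, and -0.32 (adjusted p = 0.189) and -0.48 (adjusted p = 0.0571) without the knockdown replicates. ING2 and PHF20L1 changed least for their error, with intervals of -0.27 to 0.22 and -0.25 to 0.33.

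Among 34 pairs of paralogs listed within the families, 1 pair had both genes called, 8 had 1 called and 25 had none. Of all members 17.5% were called, against 28.0% of all genes. The counts for pairs of unrelated genes were not computed. No listed pair was called in opposite directions. NSD1 and NSD3, which were not listed as a pair, were called higher (0.42) and lower (-0.44). In 4 pairs the 95% intervals did not overlap. KDM5A rose more than KDM5B, with intervals of 0.91 to 1.48 and 0.09 to 0.49. KAT2B had 0.35 to 0.93 and KAT2A, also called GCN5, -0.55 to 0.02. KDM1A had -0.03 to 0.50 and KDM1B -1.32 to -0.28. BRD3 had -1.03 to -0.42 and BRD2 -0.29 to -0.03. The differences within pairs were not tested.

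**Figure D3:**
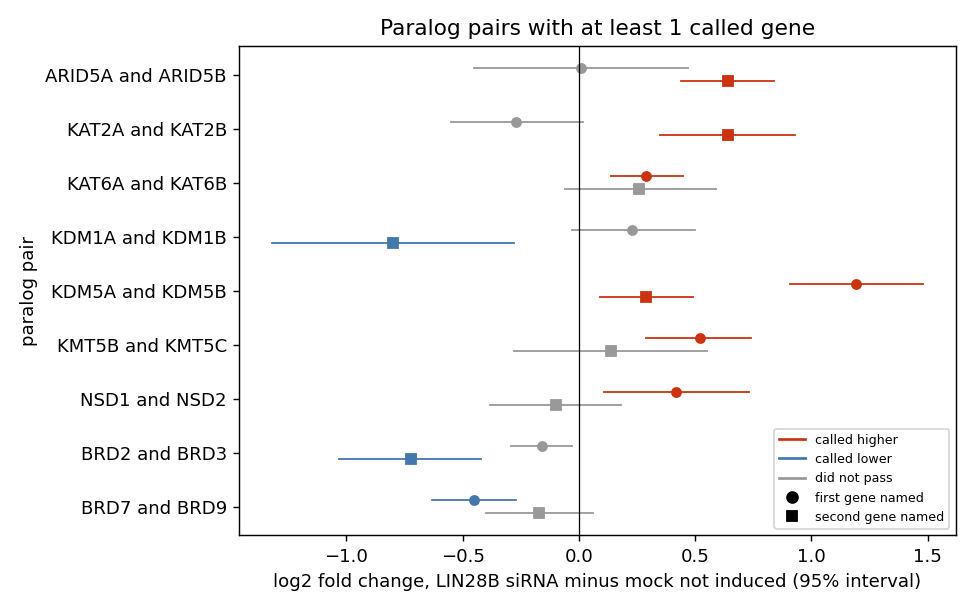
Log2 fold change in LIN28B siRNA cells against mock cells not induced (horizontal axis, 95% interval as a line) for the 9 paralog pairs with at least 1 called gene (vertical axis), where a circle is the gene named first and a square the gene named second. Red genes were called higher, blue lower and grey did not pass. The intervals of KAT2A and KAT2B, KDM1A and KDM1B, KDM5A and KDM5B, and BRD2 and BRD3 do not overlap.

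Both non-coding members lie on chromosome 7, as do the genes they are named after. Their distance to these genes was not computed. KMT2E-AS1 read 5.09 and 4.92 without induction, 5.30 and 5.19 with it and 5.53 and 5.44 in the knockdown. Its log2 difference was 0.48 (SE 0.163, adjusted p = 0.0522), above 0 like that of KMT2E. KDM7A-DT had -0.44 (SE 0.152, adjusted p = 0.0567) and KDM7A, a demethylase gene, -0.27 (SE 0.144, adjusted p = 0.19). Neither transcript passed, and both were picked after their values were seen.

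Other chromatin genes were taken from 12 lists of complexes and enzymes outside these symbols. Of 248 such genes in the table, 31 rose and 36 fell in the knockdown, or 27.0% called, against 28.0% of all genes. The median change was 0 over these genes, and by list it ran from -0.11 for the arginine methyltransferases to 0.37 for the PRC2 partners. In ISWI, INO80 and SWR1 remodelers 4 of 39 rose and 10 fell. UCHL5, a deubiquitinase of INO80 and of the proteasome, fell by 1.03 (SE 0.0911) and YY1, a DNA-binding partner of INO80, by 0.65, while INO80D rose by 0.65. Histone chaperones had 1 of 28 higher and 6 lower. ASF1A, which hands over new histones, fell by 0.71, CHAF1B of the CAF-1 complex by 0.67, and NAP1L3 rose by 0.53.

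In the COMPASS list 2 of 17 rose and 4 fell, or 35.3% called, against 28.0% of all genes. DPY30, a core subunit shared by the MLL and SETD1 enzymes, read 10.70 and 10.76 without induction, 10.76 and 10.69 with it and 9.71 and 9.88 in the knockdown, and fell by 0.94 (SE 0.0677, adjusted p = 3.76e-05). WDR5, another core subunit, fell by 0.46, and HCFC2 rose by 0.91. Of 11 arginine methyltransferase genes 0 rose and 3 fell, or 27.3% called: PRMT3 by 0.49, the PRMT5 partner WDR77 by 0.47 and PRMT1 by 0.30.

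Acetyltransferase complexes had 6 of 38 higher and 5 lower, or 28.9% called, against 28.0% of all genes. TRRAP, a scaffold of SAGA and TIP60, fell by 0.91 (SE 0.123), the SAGA deubiquitinase gene USP22 fell by 0.62, and SGF29, a SAGA reader, rose by 0.52.

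In the remaining lists from 10.0% to 28.6% of genes were called, against 28.0% of all genes. Polycomb repressive complex 1 had 2 of 14 genes higher and 2 lower: RYBP rose by 0.50, SCMH1 fell by 0.46 and PCGF6 fell by 0.38. In NuRD, SIN3 and CoREST 3 of 30 rose and 2 fell, with GPS2 up by 0.62 and the NuRD genes MBD2 and CDK2AP1 down by 0.52 and 0.45. Among other BAF subunits 3 of 15 rose and 1 fell: BICRAL fell by 0.92, ACTL6B, the actin-like subunit of neuronal BAF, rose by 0.69 and BCL11A rose by 0.49. Methyl-CpG binding and DNA demethylation genes had 4 of 17 higher and 0 lower. The cytidine deaminase gene APOBEC3B rose by 1.18 (SE 0.161), APOBEC3C by 0.47 and ZBTB4 by 0.46. In the list of lysine 9 methyltransferases and HP1 partners 1 of 20 rose, ATF7IP2 by 0.42, and 1 fell, TASOR of the HUSH complex by 0.40. Of 12 other bromodomain genes, ATAD2 rose by 0.40 and TRIM24 fell by 0.40.

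When arrays of the compared groups were left out 1 at a time, 15 of the 34 genes named from these lists by rule lost their call: ACTL6B, APOBEC3C, ATAD2, ATF7IP2, BCL11A, INO80D, NAP1L3, PCGF6, PRMT1, SCMH1, SGF29, TASOR, TRIM24, WDR5 and ZBTB4. Their adjusted p was then between 0.0507 and 0.274. Values that moved by more than 1.5 times did so without uninduced mock array 2, where ATAD2 had 0.23 (adjusted p = 0.203), WDR5 -0.30 (adjusted p = 0.0979) and USP22 -0.41. Without either knockdown array fewer of the 248 were called, and the share of all genes called in those fits is not given here.

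**Figure D4:**
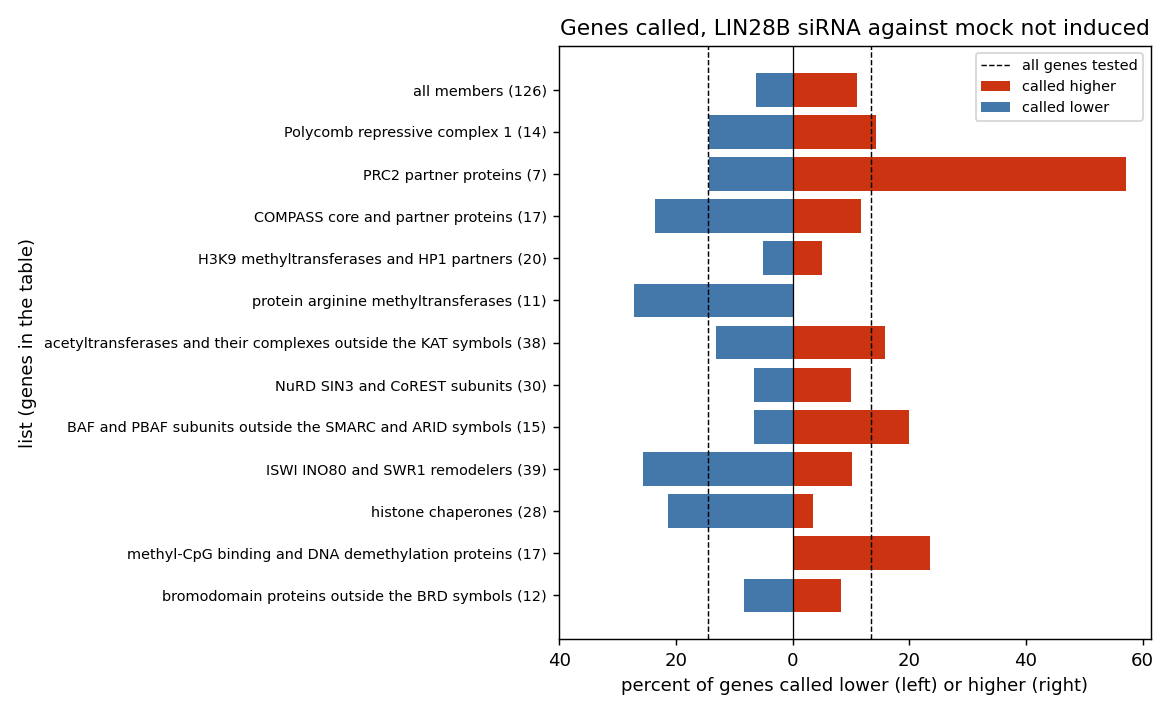
Percent of genes called higher (red, to the right) and lower (blue, to the left) in LIN28B siRNA cells against mock cells not induced, for the 126 members and for 12 related lists with their number of genes in the table. Dashed lines mark the 13.5% higher and 14.5% lower of all genes tested. Both bars of the members stop short of these lines.

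Between induced and uninduced mock cells 0 members and 0.0% of all genes were called by limma, LIN28B itself (1.14-fold) not among them. Unadjusted p-values under 0.05 were found for 5 members, or 3.97%, against 2.97% of all genes. These were SETD1A, SMARCAD1, PHF5A, SIRT2 and KDM5A. SETD1A, a COMPASS methyltransferase gene, read 6.18 and 6.32 without induction and 5.77 and 5.67 with it, a log2 difference of -0.53 (SE 0.137). SMARCAD1, a remodeler ATPase gene, read 8.97 and 8.93 without induction and 8.58 and 8.62 with it, a difference of -0.35 (SE 0.0962). PHF5A, a splicing factor with a PHD-like fold, had -0.13, the cytosolic sirtuin gene SIRT2 0.29 and KDM5A 0.30. By p-value the next on the higher side was EZH1, with 0.19. The adjusted p was 0.999 for each of these genes. Members had a median log2 difference of -0.023 (0.004 without uninduced mock array 2) and all genes -0.005. The median absolute difference was 0.065 over the members and 0.071 over all genes.

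The knockdown arrays were also set against the induced mock arrays, a comparison that shares its knockdown arrays with the first. Here 16 members rose and 9 fell, or 19.8% called, against 28.4% of all genes. Of the 22 members called against mock cells not induced, 20 were called here in the same direction. KDM5B (0.23, adjusted p = 0.0786) and SETD7 (-0.18, adjusted p = 0.0512) were not. ARID5B, KDM5A and KAT2B had the smallest p on the higher side, with 0.73, 0.90 and 0.87 here against 0.64, 1.19 and 0.64 in the first comparison. BRD7, NSD3 and BRD3 had it on the lower side, with -0.44, -0.49 and -0.65 here against -0.45, -0.44 and -0.72.

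In this comparison 5 members were called that did not pass in the first. The class II deacetylase gene HDAC4 read 5.97 and 6.00 without induction, 6.24 and 6.25 with it and 5.32 and 5.75 in the knockdown, with -0.71 here (adjusted p = 0.0103) and -0.45 in the first (adjusted p = 0.0683). PHF1, a PRC2 accessory gene, had 0.57 here and 0.33 in the first (adjusted p = 0.00521 and 0.0597). ING4 of the HBO1 complex had 0.38 and 0.28, the Polycomb gene CBX2 -0.40 and -0.22, and SMARCAD1 0.38 and 0.03. For SMARCAD1 the knockdown arrays, at 8.85 and 9.12, overlap with the mock arrays not induced, and the induced arrays lie below both. The counts here also changed when 1 of the compared arrays was left out, and the share of all genes called in those fits is not given here. Without 1 of the compared arrays in turn, between 8 and 9 rose. The number that fell was 4 and 3 without induced replicates 1 and 2, and 3 and 6 without knockdown replicates 1 and 2.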

How the data were processed

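RNA was measured on 6 arrays. The deposited values are log2 expression per probe set, which the authors made with affy and GCRMA per the submitters' processing notes, whose versions are not given in the sources used here; the same holds for the rule that chose the 13008 probe sets. GCRMA corrects background by a model of probe sequence and brings arrays to a common distribution, so low values depend most on it. The log base was taken as 2, which GCRMA returns. All but 1 probe set lay above 5 on at least 2 arrays, so genes low on every array were not analysed here. A gene low in 1 group may be present only through the other groups.

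Of the probe sets 11719 had 1 gene symbol, 609 several and 680 none listed. For each gene the set of highest mean over all arrays was used. Of the members only KDM4B had more than 1 such set among those deposited. A filter of a value above 4 on at least 2 arrays removed no gene, so all 126 members were tested. Limma 3.58.1 in R 4.3.3 (lmFit, eBayes with an intensity trend, two-sided, Benjamini-Hochberg) was fitted to 3 groups over all 6 arrays with 3 residual and 6.73 prior degrees of freedom, and was tested on simulated data. The members and lists were chosen with earlier results of these data known. Named were every called member, the 2 members of each class that changed least for their error, EZH2, SUZ12, EED, DNMT1, HDAC1, HDAC2, SMARCA4 and KDM1A, the 3 members of smallest p each way in the other comparisons, and up to 3 called genes of each related list. Alternatives were other scalings, filters, probe set summaries, variance models and fits with arrays left out. Replicate numbers were not taken to pair the arrays, and the labels do not say whether they do.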

Additional observations from a re-analysis of the deposited data

How the results depend on the processing

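The number of arrays, 2 a group, limits these results. Shares of all genes called under the alternatives below are given only where stated. A changed count alone is thus not particular to the members. In the knockdown comparison the members numbered 14 higher and 8 lower, and between 5 and 14 were higher and between 3 and 9 lower when 1 array was left out, where the lone array of a group is assumed to vary like the others. For the related lists, with 31 higher and 36 lower, these ranges were 12 to 35 and 18 to 35. Against the induced arrays, with 16 higher and 9 lower, they were 8 to 19 and 3 to 11. With a minimum change of 1.2-fold (treat), 2 members were higher and 0 lower, 4 and 8 genes of the related lists, and 4 and 0 members against the induced arrays. Those 2 were KDM5A and ARID5B, the only called members that kept their call under all 15 alternatives. SUZ12, KMT5B, BRD3 and BRD7 lost it only with that minimum.

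Without an intensity trend, or with only the 4 arrays compared, 5 members were lower. The other counts stayed within 1.5 times. Centring the arrays moved the median of members from 0.036 to 0.065, and against the induced arrays from 0.045 to 0.077. Quantile normalization moved the latter to 0.053, and leaving out 1 array gave 0.029 to 0.053. Centring gave 16 higher and 7 lower members and ended the call of SETD7 (-0.16). Quantile normalization gave PHF5A a call (-0.19).

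Replicate numbers are shared by the groups, but deviations of same-numbered arrays correlated at 0.181, -0.0568 and 0.0155 in the 3 pairs of groups, so they were not taken to pair the arrays. With the replicate number as a block 15 members were higher and 8 lower in the knockdown. In a fit added after seeing the data, knockdown against all 4 mock arrays, 19 were higher and 12 lower, or 24.6% of members against 37.0% of all genes, and KDM1A passed (0.29). LIN28B stayed between -2.51 and -2.33. Of 1433 values of single named genes under alternatives, 1255 kept their side of the threshold, 45 of these with the sign turned, all of genes that were not called. Another 170 lost their call and 7 gained one. Of called genes 1 turned its sign: with the mean of its probe sets ATF7IP2 had -0.002.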

Other observations

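A further 7 genes of the same families lie on the X chromosome and were outside the rule. SMARCA1, an ISWI remodeler ATPase gene, read 9.09 and 8.79 without induction, 9.07 and 9.03 with it and 9.49 and 9.44 in the knockdown, a rise of 0.52 (SE 0.0966, limma adjusted p = 0.00338). KDM6A, an eraser of methyl marks on lysine 27 of histone H3, rose by 0.43 (adjusted p = 0.0401) and lost its call without either knockdown array (adjusted p = 0.0924 and 0.198), without the second uninduced mock array (0.31, adjusted p = 0.158) and without either induced array (adjusted p = 0.0651 and 0.0644). HDAC6, HDAC8, KDM5C, PHF6 and PHF8 had log2 differences of 0.16, 0.32, 0.13, 0.13 and 0.16, and none of them passed. Of these 7 genes 2 were thus called, against 28.0% of all genes, and those 2 were named after their values were seen.

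Among the deposited probe sets with 1 gene symbol, the demethylase gene KDM4B is the only member with a second set. Whether the array carries further sets for other members was not examined. The set used, which has the higher mean, had a log2 difference of 0.11 between knockdown and mock cells not induced. The second set read 4.79 and 5.51 in mock cells not induced, 5.0 and 5.12 with induction and 5.51 and 5.82 in the knockdown, a difference of 0.51. On that second set the knockdown arrays do not lie apart from the second uninduced mock array.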
